A study of Homo sapiens with 6 samples.

Results

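Long noncoding RNAs that carry small nucleolar RNAs (snoRNAs) in their introns, together with other well-known long noncoding RNAs, were followed in 6 RNA sequencing libraries of MOLM-13. MOLM-13 is an established human line of acute myeloid leukaemia that carries the MLL-AF9 fusion. Cells had received a lentiviral short hairpin RNA that targets no gene (shNT, 2 libraries) or one against LAMP5, a lysosome-associated membrane protein (shLAMP5, 4 libraries), and both groups were selected with puromycin. Which hairpin and which harvest time belong to each library is unstated in the labels. Separate cultures are not mentioned either, so a p-value reflects only how far these libraries scatter, and that scatter may be technical. Members were the rows whose gene symbol is SNHG (small nucleolar RNA host gene) followed by a number, which gave 18 genes, and 20 further genes listed by name, of which 12 had a row and 8 were not analysed here (EPB41L4A-AS1, MALAT1, NEAT1, NORAD, MIR22HG, MIR155HG, MIR223HG and CYTOR). This gave 30 members among 39771 rows. The listed genes were chosen by a rule drawn up with the TPM values and differences of the shLAMP5 against shNT comparison known, so those differences are a description, and the members get no test of their own.

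A snoRNA host gene is transcribed and spliced like any other gene, and the snoRNAs are trimmed out of its excised introns. They then guide 2'-O-methylation (box C/D snoRNAs) or pseudouridylation (box H/ACA snoRNAs) of ribosomal RNA. The spliced host RNA is a separate product, and the RNA level measured here is that of the spliced or unspliced host, not of the snoRNAs. Many host genes, coding and noncoding, begin transcription at a cytosine followed by a run of pyrimidines, the 5' terminal oligopyrimidine (TOP) start that ribosomal protein genes also use and that ties the RNA to growth signalling. Several noncoding hosts hold only short reading frames and are degraded by nonsense-mediated decay when translated.

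The starts of 6 host genes are printed to show which of them begin with such a run. Of the 30 members, 26 matched a promoter in the RefSeq table (GRCh38.p14). Each line covers 30 bases before and 30 bases from the annotated start, 5' to 3' on the transcribed strand, and capitals mark a C followed by at least 4 C or T that begins at the start itself.
SNHG12, chr1:28581844-28581903, minus strand: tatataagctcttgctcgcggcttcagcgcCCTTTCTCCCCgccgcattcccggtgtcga
SNHG5, chr6:85678704-85678763, minus strand: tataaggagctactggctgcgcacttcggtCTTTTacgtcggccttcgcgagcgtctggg
ZFAS1, chr20:49278612-49278671, plus strand: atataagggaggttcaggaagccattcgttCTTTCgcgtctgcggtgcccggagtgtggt
SNHG32, chr6:31834886-31834945, plus strand: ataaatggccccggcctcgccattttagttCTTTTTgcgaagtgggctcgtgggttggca
SNHG1, chr11:62855856-62855915, minus strand: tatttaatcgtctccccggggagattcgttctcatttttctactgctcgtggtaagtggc
SNHG7, chr9:136728155-136728214, minus strand: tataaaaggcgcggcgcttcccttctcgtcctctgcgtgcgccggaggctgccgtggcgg

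A run of this kind within 20 bases of the annotated start, on the transcribed strand, was found in 17 of 20 promoters of snoRNA host members (85%, 95% Wilson interval 64.0% to 94.8%), against 51.0% of all 35116 promoters in the table. At the start itself it stood in 4 of the 20 (20%, Wilson interval 8.07% to 41.6%), which are SNHG12, SNHG5, ZFAS1 and SNHG32, against 4.07% of all promoters. For protein-coding genes that carry snoRNAs, mostly ribosomal protein genes, 27 of 35 had a promoter in the table and 18 of their 34 promoters had the run at the start (52.9%). SNHG1 and SNHG7 did not meet the criterion at the start itself. In SNHG7 the nearest run began 1 base before it, and in SNHG1 19 bases before it. GAS5 had no run within 20 bases of its RefSeq start. The letters CACGTG, which read the same on both strands and form the core of the E-box that MYC binds, occurred between 250 bases before and 50 bases after the start of SNHG7, OIP5-AS1 and TUG1 (3 of 26 members, 11.5%) against 7.26% of all promoters. An annotated start need not be the start used in these cells, and a match is a description of the sequence.

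The deposited values are TPM, a transcript abundance scaled for length and library, so levels of different genes can be compared. They carry no read number, and the depth of each library is unknown. LAMP5 itself measured 170 and 282 TPM in shNT 1 and 2 and between 65.6 and 86.7 TPM in the 4 shLAMP5 libraries, in the direction of the labels. All 11 markers of myeloid blasts and monocytes reached 1 TPM, with sums of 2634 and 6726 TPM in shNT and 2029 to 10575 TPM in shLAMP5, whereas 1 of 5 T cell, 1 of 5 B cell, 0 of 6 erythroid and 1 of 5 fibroblast markers did so in any library, and HBA2 and COL3A1 were at 0 throughout. The summed fibroblast markers ranged from 0.762 to 3.41 TPM in shNT and from 1.32 to 6.36 TPM in shLAMP5. For the T cell markers the sums were 2.28 to 4.00 TPM in shNT and 1.94 to 8.85 TPM in shLAMP5. The library shLAMP5 2 stood apart: its median scaling factor was 0.826, against 0.998 to 1.06 in the other 5, and its 13 mitochondrially encoded genes summed to 126549 TPM, against 79300.4 to 99704 TPM in the others. The medians of the snoRNA hosts and of the gene lists compared with them, and the values of several members, are given with and without that library.

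Together the 30 members took up 0.460% of the summed TPM in shNT 1 and 0.417% in shNT 2. Their share in shLAMP5 1 to 4 was 0.364%, 0.479%, 0.400% and 0.345%. The highest share was therefore in shLAMP5 2, and each of the other 3 shLAMP5 shares was under both shNT shares. In bulk RNA, fewer cells of a type and less RNA per cell cannot be told apart. Of the 30 members, 26 reached 1 TPM in at least 2 libraries and entered the limma fit of all 13072 such genes on log2(TPM + 1). The fit called 0 members at an adjusted p of 0.05, higher or lower, beside 0% of all genes tested in either direction. At an unadjusted p under 0.05, 2 members lay higher (3.72% of all genes tested did) and 4 lower (5.25% of all genes). The choice of members used this contrast, so these counts are a description from which nothing is read. The count lower was 2 under median scaling and under quantile normalization, and 7 without shLAMP5 2. Over all genes, median scaling turned 486 higher and 686 lower into 763 and 801. Under quantile normalization these were 585 and 841, and without shLAMP5 2 they were 1351 and 897 of 12769 genes tested.

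For 6 of the 26, every shLAMP5 library was lower than both shNT libraries (SNHG1, SNHG7, SNHG16, SNHG17, SNHG26 and TUBA1B-AS1), beside 13.5% of all genes tested, and for 2 it was higher than both (RNF185-AS1 and HOTAIRM1), beside 8.25%. Without shLAMP5 2 the count below was 11, with SNHG5, SNHG6, SNHG10, SNHG12 and MIR17HG added, and 3 lay above. Of all genes tested in those 5 libraries, 17.1% lay below and 22.5% above. Without shNT 1, where a single shNT library is left to compare with, 11 lay below, with DANCR, SNHG3, SNHG14, OIP5-AS1 and PVT1 added, beside 25.6% of all genes. Under median scaling 4 members lay below (13.3% of all genes), namely SNHG26, TUBA1B-AS1, SNHG3 and DANCR, so that SNHG1, SNHG7, SNHG16 and SNHG17 no longer separated. Of the 26, 20 had a negative log2 fold change (shLAMP5 minus shNT), beside 50.7% of all genes tested, and the median was -0.23 against -0.0060 for all genes.

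The 21 snoRNA host members spanned abundant RNAs and RNAs near 0. A total of 14 had a mean of at least 10 TPM, 5 lay between 3.81 and 5.91 TPM on average, and SNHG28 and SNHG31 stayed at or below 0.140 TPM and were not tested. The 19 tested had a median log2 fold change of -0.25, which was -0.37 without shLAMP5 2, -0.39 without shNT 2, -0.20 under median scaling and -0.22 under quantile normalization. Negative values were found in 16 of the 19. For 7 of the 19, the difference between the groups was smaller than the gap between the 2 shNT libraries, and for 16 it was smaller than the range of the shLAMP5 libraries (beside 49.7% and 91.2% of all genes tested).

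**Figure D1:**
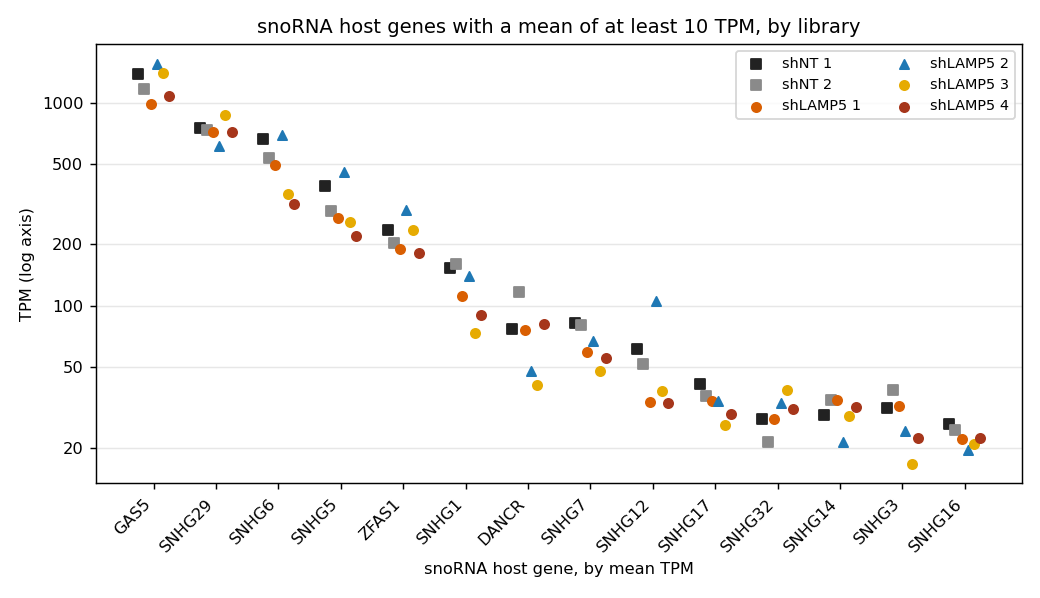
TPM on a log axis of the 14 snoRNA host genes with a mean of at least 10 TPM, 1 point per library (squares, shNT; circles and the triangle, shLAMP5; the triangle is shLAMP5 2). GAS5, SNHG6, SNHG5, ZFAS1 and SNHG12 were highest in shLAMP5 2, while SNHG1, SNHG7, SNHG17 and SNHG16 had every shLAMP5 point below both squares.

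GAS5 (ENSG00000234741), named for its rise in growth-arrested cells and host of box C/D snoRNAs, was the most abundant member. It measured 1385 and 1162 TPM in shNT against 979.9, 1549, 1394 and 1083 TPM in shLAMP5, a log2 fold change of -0.044 (SE 0.22). The groups overlapped, and GAS5 ranked between 102 and 138 among all rows in every library. SNHG29 (ENSG00000175061), which holds SNORD49A, SNORD49B and SNORD65, had 749 and 729 TPM in shNT and 713, 608, 865 and 716 TPM in shLAMP5. Its group means, 739 ± 14.0 (SD, n = 2) and 726 ± 105 TPM (SD, n = 4), lay closer than the spread of the shLAMP5 libraries, and the log2 fold change of -0.037 was positive under median scaling and quantile normalization and without shLAMP5 2. The sign of the GAS5 value also turned under median scaling and without shNT 1, shLAMP5 1 or shLAMP5 4.

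SNHG6 (ENSG00000245910), host of SNORD87, measured 662 and 536 TPM in shNT and 490.4, 689, 356 and 315 TPM in shLAMP5. SNHG5 (ENSG00000203875), which holds SNORD50B, measured 389 and 291 TPM in shNT and 270.2, 456, 259 and 220.4 TPM in shLAMP5. ZFAS1 (ENSG00000177410), an RNA from the strand opposite ZNFX1 with 3 SNORD12 genes, measured 235 and 204 TPM in shNT and 190.3, 295, 237 and 183 TPM in shLAMP5. Each of these 3 RNAs was highest in shLAMP5 2, above both shNT libraries, and the groups overlapped. Their log2 fold changes were -0.43 (SE 0.31), -0.22 (SE 0.30) and 0.019 (SE 0.24), and without shLAMP5 2 they were -0.64, -0.44 and -0.12.

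SNHG12 (ENSG00000197989), host of SNORD99 and of H/ACA snoRNAs such as SNORA44, had 61.3 and 51.7 TPM in shNT and 33.4, 105, 38.1 and 33.2 TPM in shLAMP5. Here shLAMP5 2 alone lay above the shNT libraries and the other 3 lay below both, so that the group means were similar, at 56.5 ± 6.81 (SD, n = 2) and 52.4 ± 35.1 TPM (SD, n = 4). The log2 fold change was -0.29 (SE 0.45), and -0.68 without shLAMP5 2. SNHG32 (ENSG00000204387), long annotated as the coding gene C6orf48 and host of SNORD48 and SNORD52, was the 1 host above 10 TPM with a log2 fold change over 0.1. It measured 27.8 and 21.2 TPM in shNT and 27.7, 33.0, 38.5 and 31.1 TPM in shLAMP5, a log2 fold change of 0.40 (SE 0.21), with shLAMP5 1 just below shNT 1. The value was 0.59 without shNT 1 and 0.21 without shNT 2.

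SNHG1 (ENSG00000255717) has 7 snoRNA entries within it in GENCODE release 29, among them SNORD22, SNORD25 to SNORD28 and RF00099, which carries no SNORD name. SNHG1 measured 154 and 161 TPM in shNT and 111, 139, 73.0 and 90.3 TPM in shLAMP5. Every shLAMP5 library lay below both shNT libraries, and the shLAMP5 mean was 65.7% of the shNT mean (log2 fold change -0.64, SE 0.27). SNHG7 (ENSG00000233016), host of SNORA17A and SNORA17B, showed the same order with 82.4 and 80.1 TPM in shNT and 59.3, 67.3, 47.6 and 55.2 TPM in shLAMP5 (70.6% of the shNT mean, log2 fold change -0.51, SE 0.20). SNHG17 (ENSG00000196756), which holds SNORA71 genes, had 41.1 and 35.7 TPM against 34.0, 33.9, 25.8 and 29.3 TPM (80.1%, log2 fold change -0.32, SE 0.20). SNHG16 (ENSG00000163597), host of 3 SNORD1 genes, had 26.2 and 24.4 TPM against 22.1, 19.5, 20.8 and 22.3 TPM (83.7%, log2 fold change -0.25, SE 0.18). The separation was narrow for SNHG17, where the lowest shNT value was 35.7 and the highest shLAMP5 value 34.0 TPM, and for SNHG16, where they were 24.4 and 22.3 TPM.

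Among the hosts of lower level, SNHG26 (ENSG00000228649), which holds SNORD93, had the lowest log2 fold change of the snoRNA hosts. It measured 7.39 and 10.7 TPM in shNT and 3.73, 3.86, 3.84 and 4.24 TPM in shLAMP5, so the shLAMP5 mean was 43.2% of the shNT mean (log2 fold change -1.01, SE 0.21, and -1.01 without shLAMP5 2). The 4 shLAMP5 values lay within 0.15 of each other on the log2(TPM + 1) scale, the narrowest range among the 19 hosts tested. DANCR (ENSG00000226950), host of SNORA26 and known for restraining differentiation of progenitor cells, had 77.0 and 117 TPM in shNT and 75.4, 47.8, 40.6 and 80.9 TPM in shLAMP5. SNHG3 (ENSG00000242125), host of SNORA73A and SNORA73B, had 31.2 and 38.4 TPM in shNT and 32.0, 24.2, 16.7 and 22.2 TPM in shLAMP5. In both, shNT 1 lay within the shLAMP5 values, and the log2 fold changes were -0.68 (SE 0.33) and -0.56 (SE 0.27). That of DANCR was -0.98 without shNT 1 and -0.39 without shNT 2. SNHG3 overlaps RCC1, which encodes the exchange factor of the GTPase RAN and is on the same strand, and reads may be split between them. RCC1 measured 96.9 and 97.2 TPM in shNT and 66.0, 44.97, 45.6 and 61.6 TPM in shLAMP5 (limma log2 fold change -0.84, adjusted p 0.491).

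SNHG14 (ENSG00000224078) is a long RNA of the imprinted Prader-Willi and Angelman region that carries the SNORD115 and SNORD116 clusters and overlaps SNRPN and UBE3A. It had 29.02 and 34.4 TPM in shNT and 34.2, 21.3, 28.6 and 31.7 TPM in shLAMP5, with the lowest value in shLAMP5 2 (log2 fold change -0.14, SE 0.23, and -0.0072 without that library). SNHG10, SNHG11, SNHG20 and SNHG21 ranged from 1.88 to 7.47 TPM over the 6 libraries, with log2 fold changes of -0.40, -0.041, 0.12 and -0.17, and the groups of each overlapped.

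**Figure D2:**
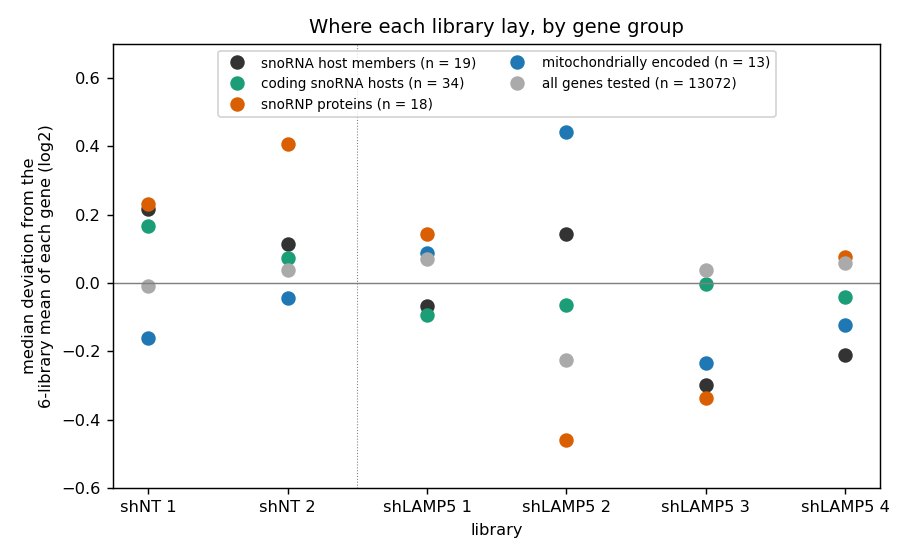
Median over the genes of a group of the deviation from each gene's own mean over the 6 libraries (log2(TPM + 1) scale), 1 point per group and library; the dotted line parts shNT from shLAMP5. In shLAMP5 2 the snoRNA host members (0.14) and the mitochondrially encoded genes (0.44) lay above 0, while snoRNP proteins (-0.46) and all genes (-0.22) lay below.

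The libraries differed in which genes they held highest. Of the 19 snoRNA hosts tested, 7 were highest in shLAMP5 2 (36.8%), beside 13.7% of all genes tested, and 3 were lowest there (15.8%), beside 44.1% of all genes. The median deviation of the hosts from their own 6-library mean was 0.22 and 0.11 in the shNT libraries, against -0.068, 0.14, -0.30 and -0.21 in shLAMP5 1 to 4. All 13 mitochondrially encoded genes were also highest in shLAMP5 2, with a median deviation of 0.44, and their part in the host values was not tested.

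Genes that act with snoRNAs were compared on the same fit. Of 18 snoRNP proteins and assembly factors, which bind snoRNAs and build the modifying particles, 17 had values under 0. The median log2 fold change was -0.42, and -0.34 without shLAMP5 2. Limma called 0 (smallest adjusted p 0.491, with 0 higher and 4 lower at an unadjusted p under 0.05). The groups separated for 8 of the 18, each with shLAMP5 below shNT (13.5% of all genes tested did so, and 17.4% of those with at least 10 TPM in 2 libraries). TCOF1, a nucleolar factor of ribosomal RNA transcription and modification, measured 37.8 and 39.0 TPM in shNT and 20.6, 20.3, 13.2 and 20.5 TPM in shLAMP5 (log2 fold change -1.03). NOLC1, a chaperone of snoRNPs in the nucleolus and Cajal body, had a log2 fold change of -0.67, and NOP10, a core H/ACA protein and the 1 positive gene, had 0.053. Of these 18, 13 were lowest in shLAMP5 2, against 3 of the 19 snoRNA host members.

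Of 34 protein-coding snoRNA hosts with a row, 32 had negative values with a median of -0.16, 12 lay below both shNT libraries in all shLAMP5 libraries (13.5% of all genes), and 0 were called (smallest limma adjusted p 0.517, with 0 higher and 5 lower at an unadjusted p under 0.05). HSPA8, a constitutive chaperone, and NCL, nucleolin, had log2 fold changes of -0.62 and -0.61, and TPT1 and EEF2, which serve growth and translation elongation, 0.15 and 0.023. NOP56 and DKC1 are counted both here and among the snoRNP proteins, so these lists overlap. The coding hosts summed to 87740 and 81182 TPM in shNT, against 71973, 78260, 81350 and 76111 TPM in shLAMP5 1 to 4, so shLAMP5 3 lay above shNT 2. Nonsense-mediated decay factors had negative values in 10 of 13, with a median of -0.25 and 0 called (smallest limma adjusted p 0.603, and 0 genes at an unadjusted p under 0.05). Of these 13, 10 were lowest in shLAMP5 2, and the median was -0.19 without that library. The decay helicase UPF1 had -0.40, the junction protein MAGOH -0.37, the endonuclease SMG6 0.095 and the kinase SMG1 0.014.

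**Figure D3:**
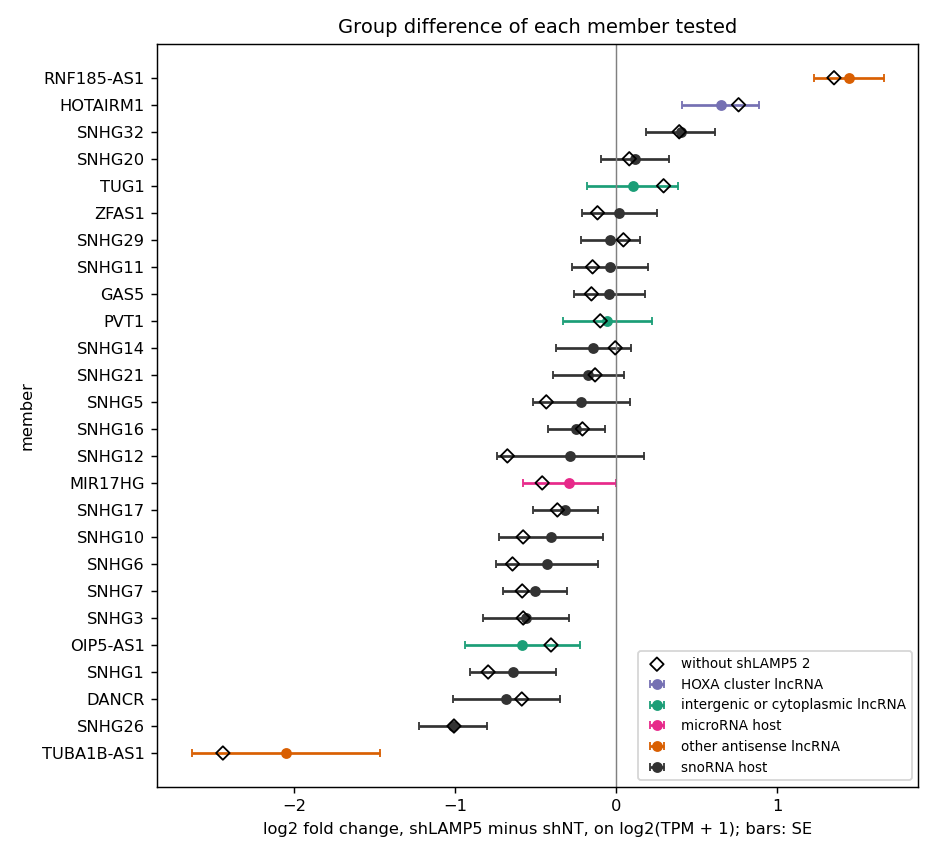
Log2 fold change of the 26 members tested (shLAMP5 minus shNT on log2(TPM + 1)); filled points with SE bars use all 6 libraries, coloured by role, and open diamonds leave out shLAMP5 2. TUBA1B-AS1 (-2.05) and SNHG26 (-1.01) lay lowest and RNF185-AS1 (1.44) highest, with and without that library.

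Members outside the snoRNA hosts included the 2 with the lowest and the highest log2 fold change. TUBA1B-AS1 (ENSG00000258017), a transcript from the strand opposite the alpha-tubulin gene TUBA1B, measured 19.8 and 23.5 TPM in shNT and 3.01, 11.3, 6.55 and 1.36 TPM in shLAMP5. The shLAMP5 mean was 25.7% of the shNT mean (log2 fold change -2.05, SE 0.58, and -2.44 without shLAMP5 2), and the shLAMP5 libraries spread over 2.38 on the log2(TPM + 1) scale. TUBA1B itself measured 1906 and 1868 TPM in shNT and 1547, 901, 994 and 1237 TPM in shLAMP5 (limma log2 fold change -0.72, adjusted p 0.505). Both lay below the shNT libraries in all 4 shLAMP5 libraries, but among these the antisense RNA was highest in shLAMP5 2, where TUBA1B was lowest.

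RNF185-AS1 (ENSG00000254835), antisense to the ubiquitin ligase gene RNF185, measured 3.08 and 2.26 TPM in shNT and 8.43, 11.0, 7.70 and 8.82 TPM in shLAMP5. The ratio of the means was 3.37, all 4 shLAMP5 values lay above both shNT values, and the log2 fold change was 1.44 (SE 0.22, and 1.35 without shLAMP5 2). RNF185 had 15.2 and 13.0 TPM in shNT and 16.6, 17.7, 24.5 and 15.1 TPM in shLAMP5, and its groups overlapped (limma log2 fold change 0.34, adjusted p 0.684). No source used here says whether counting used strand, and without strand the reads of an antisense RNA and its partner cannot be told apart where they overlap. This limit applies to each antisense RNA named here.

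**Figure D4:**
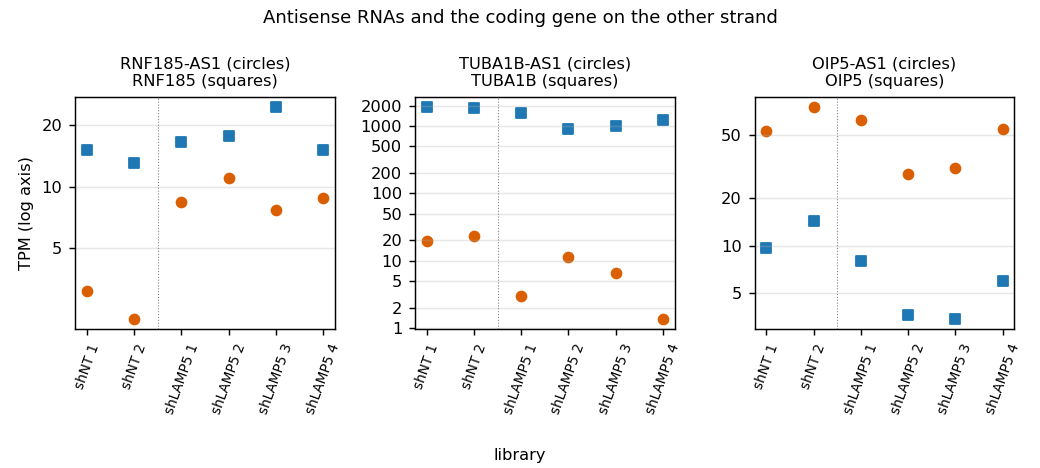
TPM on log axes of 3 antisense RNAs (circles) and the coding gene on the opposite strand (squares) in each library; the dotted line parts shNT from shLAMP5. RNF185-AS1 lay above both shNT points in every shLAMP5 library, and TUBA1B-AS1, TUBA1B and OIP5 lay below both.

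HOTAIRM1 (ENSG00000233429), a noncoding RNA of the HOXA cluster that is known to be induced in myeloid maturation, had 2.68 and 2.45 TPM in shNT and 4.07, 3.42, 5.50 and 5.65 TPM in shLAMP5. All shLAMP5 values were above both shNT values (ratio of means 1.82, log2 fold change 0.65, SE 0.24). HOXA-AS2 (0.299 to 1.14 TPM) and HOXA-AS3 (0.229 to 1.24 TPM) reached 1 TPM in 1 library each and were not tested. The coding HOXA genes near them were also low, with HOXA3 between 2.81 and 6.17, HOXA5 between 4.76 and 8.81, HOXA6 between 2.76 and 5.35 and HOXA7 between 6.37 and 14.0 TPM, and HOXA2 at or below 0.156 TPM. Their log2 fold changes were -0.36, 0.17, -0.41 and -0.15 for HOXA3, HOXA5, HOXA6 and HOXA7, and none was called. Of these 4, only HOXA6 had all shLAMP5 values below both shNT values.

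OIP5-AS1 (ENSG00000247556), the conserved RNA also called Cyrano that binds the microRNA miR-7, had 53.0 and 75.2 TPM in shNT and 62.7, 28.6, 31.1 and 54.6 TPM in shLAMP5. Its log2 fold change was -0.58 (SE 0.36), which was -0.83 without shNT 1, -0.34 without shNT 2 and -0.41 without shLAMP5 2. Its groups overlapped, with shLAMP5 1 and 4 between the shNT values. OIP5, a centromere protein gene on the other strand, had 9.60 and 14.3 TPM in shNT and 8.01, 3.63, 3.45 and 5.94 TPM in shLAMP5, all below both (limma log2 fold change -1.09, adjusted p 0.505). PVT1 (ENSG00000249859), the noncoding neighbour of MYC, had 75.6 and 138 TPM in shNT and 111, 107, 78.1 and 99.0 TPM in shLAMP5, all within the shNT values. Its log2 fold change was -0.057 (SE 0.28), and it was -0.48 without shNT 1 and 0.37 without shNT 2. MYC measured 243 and 305 TPM in shNT and 256, 143, 165 and 273 TPM in shLAMP5 (limma log2 fold change -0.43, adjusted p 0.690). TUG1 (ENSG00000253352), a noncoding RNA with roles in the nucleus and cytoplasm, had 24.4 and 32.0 TPM in shNT and 37.8, 19.8, 32.8 and 33.2 TPM in shLAMP5. Its lowest value was in shLAMP5 2, and the log2 fold change was 0.10 (SE 0.28) with it and 0.29 without it.

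MIR17HG (ENSG00000215417) is the primary transcript of the miR-17-92 cluster, from which 6 hairpins are cut, and MYC is a known activator of it. The arm of each hairpin that is usually the more abundant is printed from RefSeq (GRCh38.p14, plus strand) with its seed, bases 2 to 8, in capitals, to show which of them share a seed.
hsa-miR-17-5p, chr13:91350618-91350640: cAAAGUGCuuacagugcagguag
hsa-miR-20a-5p, chr13:91351072-91351094: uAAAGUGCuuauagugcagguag
hsa-miR-18a-5p, chr13:91350756-91350778: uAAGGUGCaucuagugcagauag
hsa-miR-19a-3p, chr13:91350939-91350961: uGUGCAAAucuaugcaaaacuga
hsa-miR-19b-3p, chr13:91351245-91351267: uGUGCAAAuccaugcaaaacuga
hsa-miR-92a-3p, chr13:91351361-91351382: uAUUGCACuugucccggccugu

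The first 2 of these share 1 seed, miR-19a-3p and miR-19b-3p share another, and miR-18a-5p and miR-92a-3p each have their own. The host measured 2.19 and 2.29 TPM in shNT and 0.966, 2.74, 1.65 and 1.503 TPM in shLAMP5. The highest value was in shLAMP5 2 and the other 3 shLAMP5 libraries lay below both shNT libraries (log2 fold change -0.29, SE 0.29, and -0.46 without shLAMP5 2). The level of a host RNA that is cut into microRNAs does not give the level of the microRNAs, which these libraries were not made to measure. Of 12 microRNA processing and effector genes tested, 9 had negative values, with a median of -0.18, and -0.19 without shLAMP5 2. Limma called 0 (smallest adjusted p 0.541, with 0 higher and 2 lower at an unadjusted p under 0.05). The exporter XPO5 had a log2 fold change of -0.55, DGCR8, the partner of DROSHA, -0.49, the scaffold TNRC6B 0.19 and DICER1 0.17.

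Proteins that bind NEAT1, itself not analysed here, were also read. All 9 paraspeckle proteins, which assemble on that RNA, had negative values with a median of -0.33, 6 lay below both shNT libraries in all shLAMP5 libraries (13.5% of all genes), and 0 were called (smallest limma adjusted p 0.524, with 0 higher and 2 lower at an unadjusted p under 0.05). DAZAP1 and RBM14 had log2 fold changes of -0.55 and -0.52.

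Of the 15 tested coding genes that overlap or neighbour a member or a related noncoding RNA not analysed here, 11 had negative values. The median was -0.17, and -0.20 without shLAMP5 2. Limma called 0 (smallest adjusted p 0.491, with 0 higher and 3 lower at an unadjusted p under 0.05). Those not yet named include SLC3A2, a neighbour of SNHG1 (log2 fold change -0.045), RPS2 (-0.17), MATR3 (-0.34), ZNFX1 (0.19) and EPB41L4A (0.26). RPS2 is also counted among the coding snoRNA hosts. SLC3A2, the heavy chain of amino acid transporters, measured 203 and 137 TPM in shNT and 145, 281, 154 and 109 TPM in shLAMP5. Like several snoRNA hosts it was highest in shLAMP5 2, while SNHG1 itself was highest in shNT 2.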

How the data were processed

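RNA was measured by RNA sequencing in 2 shNT and 4 shLAMP5 libraries, grouped by their titles. The authors deposited 1 table of gene-level TPM, read as such from its fractional values and library sums (897026 to 912565). Per the submitters' processing notes, kallisto and hg19 were used; versions, transcript set and filters: not given in the sources used here. Symbols were matched for 29895 of 39771 identifiers. Genes that reached 1 TPM in 2 or more libraries were fitted with limma 3.58.1 (R 4.3.3, mean-variance trend, log2(TPM + 1), group as sole factor, Benjamini-Hochberg adjustment over all genes, threshold 0.05), after the fit was tested on simulated data. The pseudocount understates changes of low genes. Depth is unknown, so no counting interval was computed. Intervals for promoter shares are 95% Wilson intervals and cover counting error only.

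The members, gene lists and rules were chosen with earlier results of these data known. Named were all 12 listed genes with a row, SNHG genes with a mean of at least 10 TPM, SNHG genes down to 1 TPM in less detail, the 2 genes with the smallest p per direction in each pathway list, and all neighbouring genes; a few genes that this rule or the marker lists name are not reported here. SNHG26 was given in full after its values were seen. No set test was run. The snoRNA genes lying within a host, and genes on its other strand, were read from GENCODE release 29. Alternatives covered pseudocounts, filters, scaling, a replicate block and leaving out each library. The 13 mitochondrially encoded genes served as a sign of RNA quality, and their median log2 fold change was 0.14, and 0.017 without shLAMP5 2, with 0 called. Figures were made with matplotlib 3.10.9.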

Additional observations from a re-analysis of the deposited data

Results flagged for a closer look

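Among 23 members looked at, SNHG12 was the 1 with a shLAMP5 library far from the other 3. The gap between shLAMP5 2 (105 TPM) and the next library (38.1 TPM) was 0.932 of the whole range of the 4 libraries, above Dixon's 95% critical value for 4 samples. Chance gives such a gap in about 1 of 20 groups.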

How the results depend on the processing

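Of the 26 members tested, 17 kept the sign of their log2 fold change under every alternative that gave a value (pseudocounts of 0.1 and 5 TPM, no filter or 10 TPM, median scaling, quantile normalization, the replicate block and leaving out each library). GAS5, PVT1, SNHG5, SNHG11, SNHG12, SNHG20, SNHG29, TUG1 and ZFAS1 did not. Leaving out 1 library moved the value of 17 of the 26 by over 1.5 times; the 9 others were HOTAIRM1, RNF185-AS1, TUBA1B-AS1, SNHG1, SNHG3, SNHG7, SNHG16, SNHG17 and SNHG26, the last between -1.25 and -0.77. Members were called under none of these. With no filter on low values 14 genes of the whole table were called lower, and at a minimum of 10 TPM the 2 members lying above both shNT libraries were not among the genes tested (0 members). Leaving out each library in turn, the members below both shNT libraries numbered 7 to 11 and those above 2 to 4 (15.9% to 25.6% and 9.01% to 22.5% of all genes), and the median of the snoRNA hosts ran from -0.39 to -0.20. With shNT 1 or shNT 2 left out, the lone shNT library is assumed to vary like the shLAMP5 group. The replicate number in the titles was also tried as a replicate block. It marks nothing the labels state, and deviations from the group means correlated at -0.52 and -0.47 for numbers 1 and 2. The deviations of the 2 shNT libraries mirror each other by construction, so these are not separate checks of a pairing. With the block, 7 genes of the whole table were called higher and 9 lower. The median was then -0.077 for all members and -0.11 for the snoRNA hosts, beside -0.067 for all genes tested. A number that only shLAMP5 holds is fitted exactly by its own block and adds nothing to the group difference. The block values therefore rest on numbers 1 and 2 of each group, shLAMP5 2 among them, and not on every library. Little is also left over in this fit to estimate scatter. No biological cause was tested. The share of snoRNA host promoters with a pyrimidine run was 65% within 10 bases and, in a criterion added after the data were seen, 20% at the start itself.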
